A study of Homo sapiens with 16 samples.

Results

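The clustered histone genes are the copies of the core and linker histone genes that lie in tandem on chromosomes 1 and 6. They were chosen as the GENCODE 44 protein-coding genes on those chromosomes whose symbol begins with H1- and a digit, H2AC, H2BC, H3C or H4C, followed by a number. The rule gave 68 of 20033 protein-coding genes: 6 linker histone H1 genes and 17 H2A, 18 H2B, 13 H3 and 14 H4 genes. They form 5 clusters in hg38, of which the largest, at chr6:25726562-26285534, holds 34 genes. The others hold 5 genes at chr6:27132795-27147106, 16 genes at chr6:27807929-27893425, 11 genes at chr1:149812370-149887965 and 2 genes at chr1:228457873-228458103. In 12 places an H2A and an H2B gene stand head to head, with starts 194 to 251 bp apart, so 24 of the genes share a promoter stretch with a neighbor.

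These genes supply the bulk of the histone protein that packages newly copied DNA. They are short, mostly lack introns, and are transcribed chiefly in S phase from a nuclear domain that forms around NPAT, a cyclin E/CDK2 substrate. H3K4me3, trimethylation of lysine 4 of histone H3, marks the nucleosomes on either side of the start of active genes, and H3K27me3, trimethylation of lysine 27, marks genes held silent by Polycomb proteins. A few clustered copies, such as H1-6, H2AC1 and H2BC1, are known as testis forms.

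The 2 marks were mapped by CUT&RUN, in which an antibody brings a nuclease to the chromatin that it binds, in MCF-10A, an immortalized line from normal breast epithelium. Cells received vehicle (PBS) or octanoic acid (OA), a medium-chain fatty acid, at 5 mM for 24 hours, with 3 replicates per group and mark. A further 2 libraries of H3K4me3 and 2 of nonspecific IgG came from untreated cells. The data are lists of called peaks, with no read counts, and values of a group are given in the order of replicates 1 to 3. An absent peak is an absent call at that library's depth and not an absence of the mark.

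The H3K4me3 lists held 16086 to 21033 peaks in the 6 vehicle and OA libraries, 12924 and 11242 in the untreated libraries, and 1280 and 1131 for IgG; the H3K27me3 lists held 9091 to 47648. The lowest local background shared by the peaks of a library, a measure that grows with depth, was recovered from the fold and p of its peaks. Peaks with the smallest p were left out of this step. This background was 0.45 reads in vehicle replicate 3, 0.63 to 0.85 reads in the other 5 vehicle and OA H3K4me3 libraries, and 0.94 and 0.95 reads in the untreated ones. Vehicle replicate 3 was thus the lowest of the 6 by this measure. Of 8 epithelial marker genes, 4 (KRT5 and KRT17 among them) had an H3K4me3 region called in all 6 libraries and 2 in fewer, whereas KRT14 and TP63 had none over the canonical start. None of the 4 blood, 2 endothelial and 2 muscle markers had a region, nor had any of the 3 genes of 9p21 (CDKN2A, CDKN2B and MTAP), which MCF-10A is known to lack.

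Most clustered histone genes had their start under an H3K4me3 region. Overlapping peaks of all 6 vehicle and OA libraries (minimum 1 bp) were joined into regions, and a region was kept if 2 or more libraries contributed to it. The canonical start of 44 of the 68 genes (64.7%) lay under a region called in all 6 libraries, that of 14 under a region called in 2 to 5, and that of 10 (14.7%) under none. Among the other 19965 protein-coding genes the shares were 51.1% in all 6 and 41.1% in none. A start under a region may still lie outside the peaks of a library. By library, the start base itself was in a peak for 14.7% to 79.4% of the 68 genes, against 39.1% to 57.9% of the others. The histone share was the higher only in OA replicate 3 and, at 51.5% against 51.2%, in vehicle replicate 2. By family, 14 of 17 H2A genes, 11 of 18 H2B, 7 of 13 H3, 8 of 14 H4 and 4 of 6 H1 genes were under a region called in all 6. The H4 genes had the most starts under no region, 4 of 14. The 58 starts fell in 42 regions, 31 of them called in all 6 libraries, since neighbors often shared a region.

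**Figure D1:**
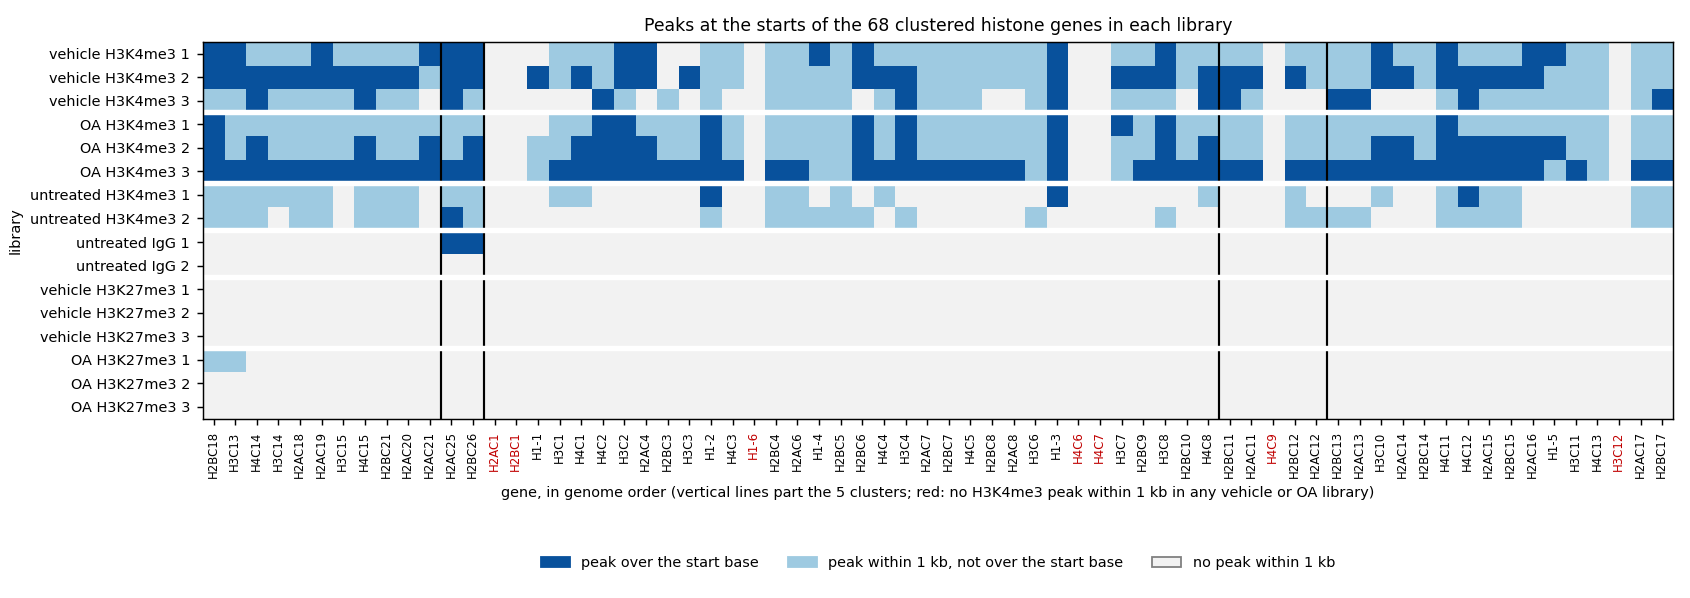
Peaks at the starts of the 68 genes (columns, in genome order) in the 16 libraries (rows). Dark cells mark a peak over the start base, light blue cells a peak within 1 kb and gray cells none; 7 genes (red) had no H3K4me3 peak within 1 kb in any of the 6 vehicle and OA libraries, and no gene had an H3K27me3 peak over its start.

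The 10 starts outside every region were of different kinds. Those of H4C13, H2BC5 and H3C6 lay 55, 80 and 400 bp from a region, the starts of H4C13 and H2BC5 just upstream of it, so that the gene body of H4C13 met a peak in all 6 libraries and that of H2BC5 in 5. The region beside H4C13 is the one that holds the start of H3C11, whose own gene body met a peak in 1 library. The other 7 genes (H2AC1, H2BC1, H1-6, H4C6, H4C7, H4C9 and H3C12) had no peak within 1 kb in any of the 6 libraries, nor in the 2 untreated ones. The nearest region was 1753 bp away for H3C12, 2559 bp for H4C7, 3594 bp for H1-6, 5155 bp for H4C6 and 5191 bp for H4C9. For the head-to-head pair H2AC1 and H2BC1, at the telomeric end of the large cluster, it was 235936 and 235721 bp away. The same 7 genes were without a region within 1 kb when any 1 of the 6 libraries was left out. In contrast, the count of 10 starts outside a region rose to 25 without OA replicate 3, the library with the most peaks, because 15 further starts, between the peaks of a region or near its edge, lay inside a peak of that library only. With any annotated start in place of the canonical one, H3C6 and H3C12 counted as marked.

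The genes without a region stood in sequence that was mostly unique. In the window from 1 kb before to 1 kb after the start, 93.2% to 100% of 50-base words occurred once in hg38 for the 10 genes without a region, with a median of 98.6%. The median was 96.6% for the 58 genes with a region. At 8 genes of the 11-gene cluster on chromosome 1 under 50% of the words were unique, and at H3C14, H3C15, H4C14 and H4C15 none was. These are duplicated copies, and reads cannot be placed between them with certainty, so the values of H2AC18, H2AC19, H3C13, H3C14, H3C15, H4C14, H4C15 and H2BC18 are uncertain.

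The promoter sequences of marked and unmarked copies are set side by side here for the linker histones and for H4, the families described copy by copy below. The 150 bases upstream of the start are given in the direction of transcription, from hg38, with capitals for the core of the TATA box, written TATAAA, for the box written CCAAT, for ATTTGCAT (the octamer bound by POU2F1) and for AAACACA (a box known from H1 promoters), on either strand. H1-3 had a peak over its start base in all 6 libraries and H1-6 had none within 1 kb.
H1-3, chr6:26234988-26235137, minus strand: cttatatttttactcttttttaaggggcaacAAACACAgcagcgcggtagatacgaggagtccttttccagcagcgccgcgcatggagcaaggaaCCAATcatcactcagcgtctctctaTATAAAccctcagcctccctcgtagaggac
H1-6, chr6:26108136-26108285, minus strand: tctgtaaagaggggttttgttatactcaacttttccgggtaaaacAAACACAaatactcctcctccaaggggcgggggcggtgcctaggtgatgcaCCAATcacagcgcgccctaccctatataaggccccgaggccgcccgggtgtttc
H4C2 and H4C8 were called in all 6 libraries, and H4C6, H4C7 and H4C9 in none.
H4C2, chr6:26027284-26027433, minus strand: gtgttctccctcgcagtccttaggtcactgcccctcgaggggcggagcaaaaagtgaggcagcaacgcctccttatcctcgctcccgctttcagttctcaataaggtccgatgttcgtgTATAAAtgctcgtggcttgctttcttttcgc
H4C8, chr6:26285535-26285684, minus strand: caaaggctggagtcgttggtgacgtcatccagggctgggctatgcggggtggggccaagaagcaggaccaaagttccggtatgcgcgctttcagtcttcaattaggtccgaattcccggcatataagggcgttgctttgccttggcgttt
H4C6, chr6:26240243-26240392, plus strand: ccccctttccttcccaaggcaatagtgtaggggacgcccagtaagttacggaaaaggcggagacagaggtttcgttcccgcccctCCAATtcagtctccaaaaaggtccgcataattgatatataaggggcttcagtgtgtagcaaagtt
H4C7, chr6:26246997-26247146, minus strand: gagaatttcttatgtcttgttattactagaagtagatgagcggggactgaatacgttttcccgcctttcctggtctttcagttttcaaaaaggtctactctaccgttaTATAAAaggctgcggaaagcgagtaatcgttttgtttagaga
H4C9, chr6:27139132-27139281, plus strand: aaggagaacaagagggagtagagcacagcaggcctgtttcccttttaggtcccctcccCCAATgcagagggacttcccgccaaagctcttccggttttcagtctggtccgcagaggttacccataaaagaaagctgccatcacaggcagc

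The motifs were unevenly spread over the histone families. AAACACA was present in 5 of 6 H1 genes, H1-6 included, and in no other clustered gene, against 1.98% of all 20033 protein-coding genes. CCAAT was present in every H1, H2A, H2B and H3 gene but in 3 of 14 H4 genes, against 26.5% of all genes. The octamer was found in 14 of 18 H2B genes and 5 of 17 H2A genes, and in no H1, H3 or H4 gene, against 0.943% of all genes. TATAAA was found in 40 of the 68 genes (58.8%), against 6.72% of all. Of the 10 genes without a region, 6 held TATAAA, 9 CCAAT and 2 the octamer. Of the 58 with a region, 34 held TATAAA, 48 CCAAT and 17 the octamer. The windows of head-to-head pairs overlap, so their matches are not independent, and a match is a description of letters and no sign of binding.

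The 14 genes under regions called in 2 to 5 libraries were H3C14, H1-1, H3C1, H4C1, H2BC3, H3C3, H4C3, H2BC6, H2BC8, H2AC8, H2BC10, H3C10, H2AC14 and H2BC14, in 11 regions. Vehicle replicate 3 lacked a peak in 10 of the 11 regions, vehicle replicate 1 in 3, vehicle replicate 2 and OA replicate 1 in 1 each, and OA replicates 2 and 3 in none. Without vehicle replicate 3, the number of genes under a region called in every remaining library rose from 44 to 55. The region of H1-1, a linker histone gene, was called in vehicle replicate 2 and OA replicates 2 and 3 only, with folds of 4.93, 4.95 and 3.48. The region of H2BC3 had a fold of 3.78 in vehicle replicate 3, where it was among the weakest peaks of the library (percentile 0.136), no peak in the other vehicle libraries, and folds of 4.01, 3.81 and 4.77 in the 3 OA replicates. That of H3C3 had 5.36 in vehicle replicate 2 alone of the vehicle libraries, and 5.04, 6.08 and 5.46 in the 3 OA replicates. Thus the vehicle calls of H2BC3 and H3C3 each rested on a single library.

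Within the marked genes, the peaks tended to miss the start base itself. Of the 44 genes under a region called in all 6 libraries, the start base lay inside a peak for 31.8%, 63.6% and 27.3% in the 3 vehicle replicates and for 20.5%, 43.2% and 93.2% in the 3 OA replicates. For the 10203 other protein-coding genes under such regions the shares were 91.5%, 94.3% and 82.1%, and 70.2%, 87.5% and 96.9%. The histone share was the lower in each library, by the least in OA replicate 3. At 250 bp into the gene the histone shares were 95.5%, 93.2% and 50%, and 93.2%, 93.2% and 100%, so the mark was present downstream of starts that no peak covered. The vehicle mean ± SD rose from 40.9% ± 19.8 at the start to 79.5% ± 25.6 at 250 bp, and the OA mean from 52.3% ± 37.2 to 95.5% ± 3.94 (n = 3 each). Many histone regions were split into separate peaks. Of the 31 histone regions, 61.3%, 29.0% and 29.0% held 2 or more peaks in the 3 vehicle replicates and 48.4%, 35.5% and 9.68% in the 3 OA replicates, against 3.41% to 16.4% of the other 8986 start-site regions. The order of the libraries by this share was not that of their shares at the start.

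**Figure D2:**
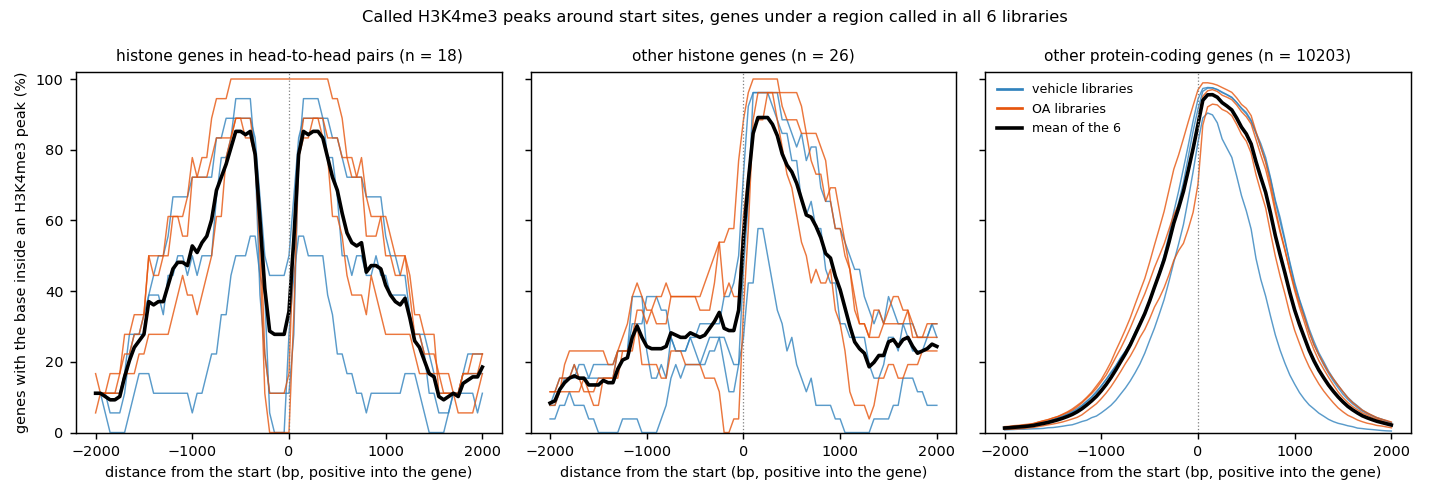
Share of genes (y axis, percent) with the base at each distance from the start (x axis, bp) inside an H3K4me3 peak, for genes under a region called in all 6 libraries. Thin lines are single libraries and black lines the mean of 6. The mean reads 34.3% at the start of the 18 genes in head-to-head pairs, between shoulders of 85.2%, and 87.1% at the start of the 10203 other protein-coding genes.

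At the start base the gap was, on average though not in every library, deepest at the head-to-head pairs of H2A and H2B genes, which share the promoter between them. At 150 bp before the start the mean over the 6 libraries was 28.8% for the 26 unpaired genes and 28.4% for all 44. The pairs were thus not set apart there. For the 18 paired genes under regions called in all 6, the start base was inside a peak in 11.1%, 50% and 27.8% of cases in the 3 vehicle replicates and in 0%, 16.7% and 100% in the 3 OA replicates. On average over the 6 libraries the share was 34.3% at the start and 85.2% both 250 bp into the gene and 500 bp before it, where the partner gene runs the other way. For the 26 unpaired genes the mean was 55.1% at the start, 89.1% at 250 bp into the gene and 27.6% at 500 bp before it, so they had the mark on the gene side. Their shares at the start were 46.2%, 73.1% and 26.9% in the 3 vehicle replicates and 34.6%, 61.5% and 88.5% in the 3 OA replicates. In vehicle replicate 3 and OA replicate 3 these were below the shares of the paired genes. The stretch between the starts of H2AC7 and H2BC7, where a peak covered either start in OA replicate 3 only, and that of H2AC1 and H2BC1, the pair without H3K4me3, are shown on the plus strand with the same capitals.
H2AC7/H2BC7, chr6:26199294-26199515, plus strand: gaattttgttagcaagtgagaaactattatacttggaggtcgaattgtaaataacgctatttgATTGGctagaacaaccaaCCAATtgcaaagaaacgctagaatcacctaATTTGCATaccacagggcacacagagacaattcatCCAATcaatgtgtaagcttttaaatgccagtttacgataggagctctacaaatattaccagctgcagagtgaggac
H2AC1/H2BC1, chr6:25726563-25726776, plus strand: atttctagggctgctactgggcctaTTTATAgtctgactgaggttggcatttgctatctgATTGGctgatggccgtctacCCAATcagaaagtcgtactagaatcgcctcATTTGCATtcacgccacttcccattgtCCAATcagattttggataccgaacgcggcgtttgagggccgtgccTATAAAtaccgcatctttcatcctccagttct
Both hold the octamer, CCAAT and its reverse complement; 9 of the 12 such stretches hold the octamer.

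Where a region held the start of a single histone gene and no other, the highest point of the H3K4me3 region lay a median of 192.5 bp downstream of the start (quartiles 135 and 214 bp; 19 genes, each taken as its median over the libraries). For the 7855 other genes alone in their region the median was also 192.5 bp, with quartiles of 123 and 400 bp. It lay downstream for 15 of the 19 histone genes and for 7004 of the 7855 others. The exceptions were H2AC18, H2AC19, H4C8 and H3C11. At H3C11 the highest point lay upstream of the start in all 6 libraries, at -1019 to -288 bp, on the side of H4C13. The highest point at H4C8 was downstream in 3 libraries and upstream in the other 3, at 210, -372 and -268 bp in the 3 vehicle replicates and 222, -270 and 215 bp in the 3 OA replicates.

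Histone gene regions were long when joined over the libraries and of modest fold over their local background. The 31 regions called in all 6 libraries had a median length of 2172 bp, from 879 bp at H4C4 to 3177 bp at the pair H2AC15 and H2BC15, against 1599 bp for the other 8986 start-site regions. The next longest were those of the pairs H2AC17 and H2BC17, 3051 bp, and H2BC4 and H2AC6, 3020 bp. A region with 2 or more gene starts is longer by its making: 12 of the 31 held 2 or more starts, against 12.6% of the others. Within single libraries the peaks of a histone region summed to a median of 1301, 1587 and 439 bp in the 3 vehicle replicates and 992, 1762 and 1796 bp in the 3 OA replicates. The other start-site regions had 1352, 1362 and 887 bp, and 1133, 1364 and 1435 bp, so the histone regions were the shorter in 3 of the 6 libraries. Their median fold, the enrichment of the highest peak over its local background, was 5.72, 5.86 and 6.54 in the 3 vehicle replicates and 5.62, 6.31 and 5.88 in the 3 OA replicates. The other regions had medians of 8.95, 10.5 and 10.9, and 7.25, 10.002 and 9.48. Ranked by the p of the highest peak within its library, where the strongest peak has a percentile of 100, the histone medians were 53.1, 41.7 and 37.0, and 50.3, 50.3 and 62.6. Those of the other start-site regions were 75.03, 70.2 and 68.2, and 69.9, 71.5 and 75.3. Fold and p are both set against the local background, so neither is a count of reads. In OA replicate 3 the region of H2BC4 and H2AC6 had a fold of 4.34 at a recovered pileup of 159 reads. That of H4C4 had 10.6 at 77 reads. Pileups were not compared with those of other regions, so a low fold or rank does not show a low amount of H3K4me3.

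**Figure D3:**
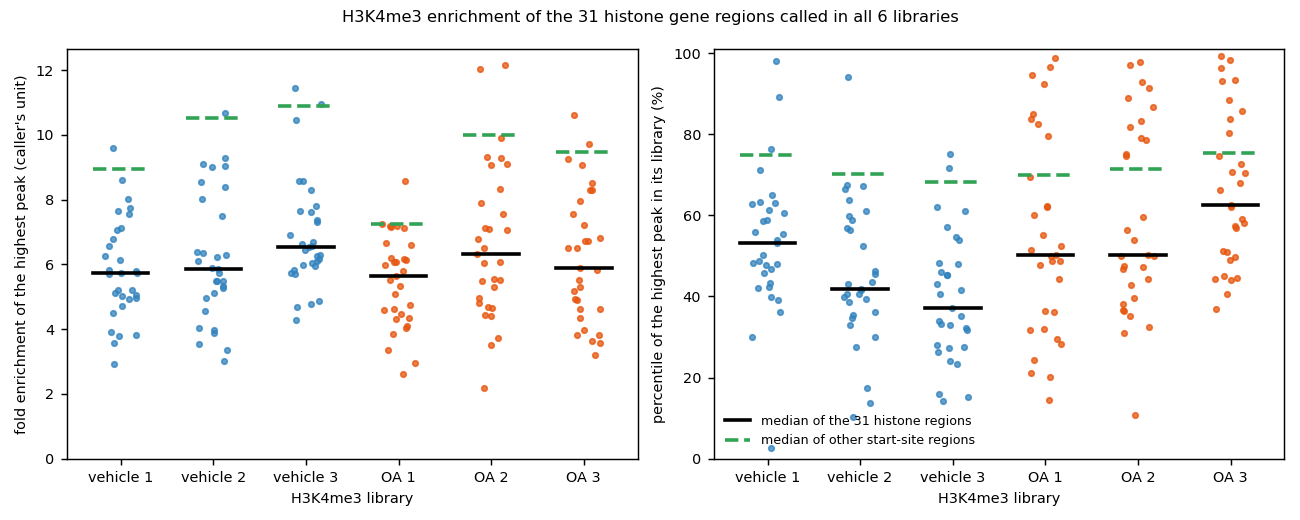
Fold enrichment (left, caller's unit) and percentile by p within the library (right) of the 31 histone gene regions called in all 6 libraries, 1 point per region and library. Black bars are the histone medians and dashed green bars the medians of the other start-site regions, which were the higher in all 6 libraries on both scales.

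The strongest region by mean percentile was that of the pair H2AC25 and H2BC26, the only genes that the rule chose in their part of chromosome 1. Its percentiles were 98.2, 94.3 and 71.8 in the 3 vehicle replicates and 98.8, 83.3 and 99.3 in the 3 OA replicates, with a mean of 90.9. It was also the only histone region with an IgG peak, in 1 of 2 IgG libraries, with a fold of 4.37; the part of nonspecific signal in this region was not tested. Next came the duplicated H2A genes H2AC18 and H2AC19, with mean percentiles of 82.0 and 80.0. The weakest of the 31 regions called in all 6 libraries were those holding the starts of H3C11 with 23.2, H3C15 with 28.1 and H3C7 with 30.5. Of the 11 regions called in 2 to 5, that of H2BC3 had the lowest mean percentile, 12.48, over the libraries with a peak.

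Among the linker histones, which bind DNA between nucleosomes, H1-2, H1-3, H1-4 and H1-5 were under regions called in all 6 libraries. H1-2 had folds of 7.55, 8.40 and 4.86 in the 3 vehicle replicates and 5.78, 9.89 and 6.49 in the 3 OA replicates. H1-3 had 7.07, 8.02 and 6.15, and 7.17, 9.07 and 9.71. H1-4 had 5.12, 4.54 and 6.54, and 3.84, 5.28 and 3.81, and the region shared by H1-5 and H2AC16 had 5.84, 5.87 and 6.04, and 4.73, 6.04 and 5.81. Vehicle and OA values overlapped at all of these. The linker genes thus ran from H1-3, with a peak over the start base in every library, through H1-1, called in 3 libraries, to H1-6, with no peak nearby.

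The H4 genes, whose products are the partners of H3 in the nucleosome core, covered a similar range. The regions of H4C2, H4C4, H4C5, H4C8, H4C11, H4C12, H4C14 and H4C15 were called in all 6 libraries, those of H4C1 and H4C3 in 5, all but vehicle replicate 3. H4C8 was the most even, with folds of 9.58, 9.09 and 10.5 in the 3 vehicle replicates and 8.59, 9.27 and 9.26 in the 3 OA replicates. H4C11 ranged from 6.17 in OA replicate 1 to 12.04 in OA replicate 2, and H4C4 from 5.34 to 12.1 in the same libraries. H4C3 had 6.51 and 9.51 in vehicle replicates 1 and 2, with 7.76, 10.5 and 10.4 in the 3 OA replicates. H4C1 shared its region with H3C1, at 4.56 and 6.07 in vehicle replicates 1 and 2, with 3.96, 3.90 and 4.73 in the 3 OA replicates.

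No histone gene region passed the test of OA against vehicle in H3K4me3 fold. The log2 fold of the highest peak, after the median of each library was removed, was compared by limma over all 11071 regions called in all 6 libraries, with Benjamini-Hochberg adjustment. Of the 31 histone regions, 0 passed an adjusted p of 0.05, beside 1 of 11071 higher in OA (0.00903%), at KRBA2, and 0 lower (0%). With so few regions passing, a count of 0 cannot show that OA left the histone regions unchanged. The study itself, by DiffBind, reported H3K4me3 peaks significantly enriched in OA. That test could not be rerun on peak lists without read counts, and its peaks were not searched for histone genes here. At an unadjusted p under 0.05 there were 6 histone regions, all higher in OA, beside 816 of all regions (7.37%). The fitted difference was above 0 in 19 of the 31, with a median of 0.10, against 47.6% and a median of -0.01 over all regions. Without removal of the library medians, the median of all regions was -0.18 and that of the histone regions -0.06, so the sign of the histone median depended on it. The number of histone regions with an unadjusted limma p under 0.05 was then 0, beside 632 of all regions (5.71%). Leaving out any 1 library kept the number called at 0, but the histone median fell to 0.014 without vehicle replicate 2, to 0.014 without vehicle replicate 3 and to 0.021 without OA replicate 1, and was 0.17 without OA replicate 3.

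**Figure D4:**
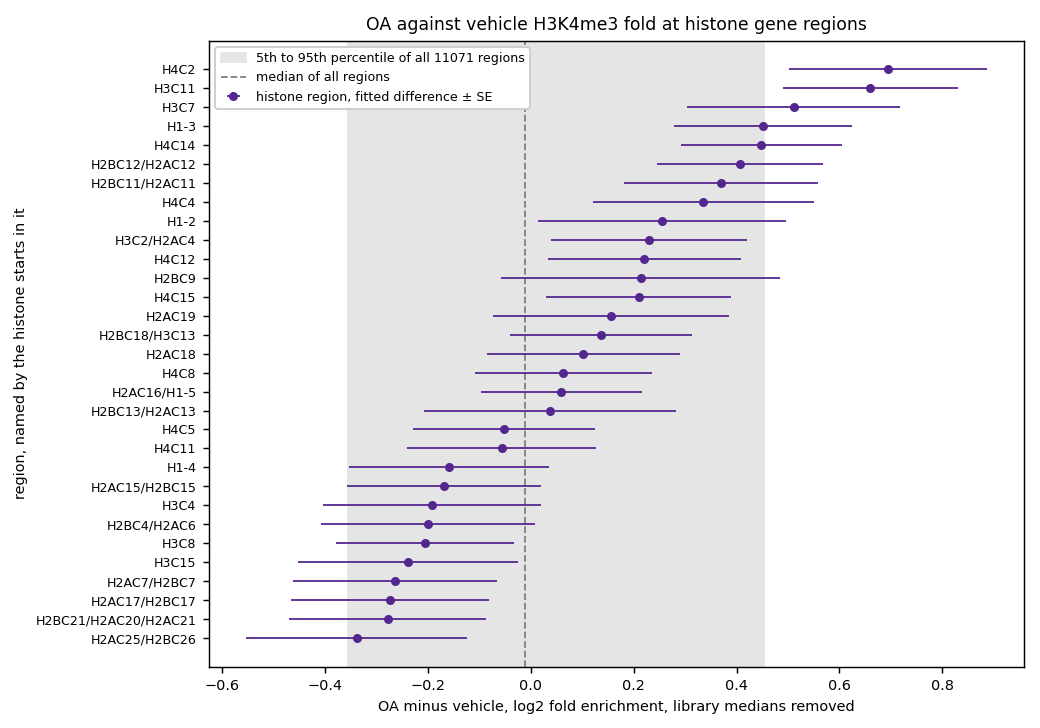
Fitted OA minus vehicle difference of log2 fold (x axis, library medians removed) for the 31 histone gene regions, with SE bars. The gray band spans -0.36 to 0.45, the 5th to 95th percentile of all 11071 regions; H4C2, H3C11 and H3C7 lie beyond it, and no region passed the adjusted threshold.

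The largest differences were at the regions of H4C2, H3C11 and H3C7. H4C2 had folds of 5.03, 4.03 and 5.83 in the 3 vehicle replicates and 6.07, 7.06 and 8.29 in the 3 OA replicates. The groups did not overlap, and the difference was 0.69 ± 0.19 (SE) with a limma adjusted p of 0.501. Its peaks summed to 591, 627 and 387 bp in vehicle and 849, 1143 and 1156 bp in OA. The region with the H3C11 start, whose peaks met the body of H4C13 in all 6 libraries, had 3.82, 4.95 and 5.69 in vehicle and 6.12, 7.57 and 6.51 in OA, with a difference of 0.66 ± 0.17 with an adjusted p of 0.501. H3C7 had 3.92, 3.02 and 4.78 in vehicle and 4.59, 5.47 and 4.62 in OA, where the groups overlapped; its difference was 0.51 ± 0.21 with an adjusted p of 0.637, and 0.30 without vehicle replicate 2. At the other end the region of H2AC25 and H2BC26 had 7.66, 9.02 and 10.96 in vehicle and 7.13, 5.54 and 6.74 in OA. Its difference was -0.34 ± 0.21 with a limma adjusted p of 0.763, and ran from -0.56 without OA replicate 1 to -0.14 without OA replicate 2. Its recovered pileups, not scaled for depth, were 201, 273 and 42 reads in vehicle and 110, 200 and 307 reads in OA. The part of the local background in this difference was not tested. The region of H2BC21, H2AC20 and H2AC21 followed with -0.28 ± 0.19, which was -0.42 without vehicle replicate 2 and -0.14 without vehicle replicate 3, and that of H2AC17 and H2BC17 with -0.27 ± 0.19, which was -0.45 without OA replicate 1.

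On the rank scale most histone regions had higher values in OA, and none passed the threshold. With the percentile by p in place of log2 fold, 0 of 31 regions passed, with a lowest limma adjusted p of 0.207, and 11 had an unadjusted p under 0.05, beside 11.5% of all regions. The difference was above 0 in 24 of the 31 against 53.5% of all regions, with a median of 17.1 percentile points against 0.876. The median was 14.3 to 19.5 when any library but vehicle replicate 3 was left out, and 7.42 over 39 regions without vehicle replicate 3. The library medians of the histone regions nevertheless overlapped between the groups, at 37.0 to 53.1 in vehicle and 50.3 to 62.6 in OA. The p behind the rank grows with depth, and vehicle replicate 3 had the lowest background; its part in the shift beyond these values was not tested.

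No histone gene region passed the test on the summed length of its peaks. By limma on log2 length, 0 of 31 histone regions passed, beside 0 of 11071 in either direction (0%). At an unadjusted p under 0.05 there was 1, H4C2 at 0.99 ± 0.26, beside 284 of all regions (2.57%). The median difference was 0.47 for the histone regions and 0.13 for all regions. Without vehicle replicate 3, whose histone peaks summed to a median of 439 bp against 992 to 1796 bp in the other libraries, it was -0.03 over 39 regions, against -0.04 for all. It was 0.25 without OA replicate 3 and up to 0.78 without another library. With the median of each library removed it was 0.31, against -0.03 for all regions.

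No histone gene gained or lost a region outright. A region was counted as OA-only when all 3 OA libraries and no vehicle library had a peak, and as vehicle-only in the reverse case. Of the 68 genes, 0 were under an OA-only H3K4me3 region, beside 345 of 18734 kept regions (1.84%), and 0 under a vehicle-only region, beside 15 (0.0801%). The count became 1 without vehicle replicate 3, through H2BC3, and 1 without vehicle replicate 2, through H3C3, the genes whose vehicle call came from that library alone. The shares are of regions and the counts are of genes. At shares so low, a count of 0 cannot show that histone genes differ from other regions.

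H3K27me3 was called at the start of no clustered histone gene. In each of the 6 libraries, 0 of 68 starts lay in an H3K27me3 peak. This held for the 10 genes without H3K4me3 as for the 58 with it. Among other protein-coding genes, 7.34% of the 8200 without an H3K4me3 region and 1.39% of the 11765 with one had an H3K27me3 peak over the start in at least 1 library, and 3.34% and 0.348% in at least 2. At such shares fewer than 1 of 10 genes would have a peak, so a count of 0 of 10 cannot show that these genes differ from other unmarked genes. The only peak within 1 kb of a start was in OA replicate 1, near H2BC18 and H3C13, in the duplicated cluster. H2AC1 and H2BC1 had their nearest H3K27me3 peak in any library 2.76 and 2.54 kb away, and the remaining genes 6.83 kb or further; the median over the 68 was 79.7 kb. No gene was under an OA-only or vehicle-only H3K27me3 region, beside 80 (0.245%) and 832 (2.55%) of 32643 kept regions. With no start inside an H3K27me3 peak of any library, this count had to be 0.

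The H3K27me3 peaks inside the clusters were few and narrow. In the large chromosome 6 cluster they numbered 8, 8 and 7 in the 3 vehicle replicates and 11, 8 and 1 in the 3 OA replicates, covering 0.0701% to 1.00% of its 561 kb. The OA library with 1 peak was replicate 3, which had the shortest H3K27me3 list. The other chromosome 6 clusters and the pair on chromosome 1 had none. H3K4me3 peaks covered 1.69% to 6.85% of the same large cluster, 3.45% to 25.2% of the 5-gene cluster and 5.04% to 17.3% of the 16-gene cluster, in each case the least in vehicle replicate 3.

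Untreated cells showed the mark at fewer of the genes. A peak fell in the region of 30 and 28 of the 68 genes in the 2 untreated H3K4me3 libraries, against 45 to 58 in the vehicle and OA libraries, but over the start base of 3 and 1. Within 1 kb of the start, 41.2% and 42.6% of the histone genes had a peak in the untreated libraries, against 66.2% to 89.7% in the vehicle and OA libraries. For the other protein-coding genes the shares were 49.2% and 45.2%, against 53.4% to 64.2%. Of the 31 regions called in all 6 libraries, 14 had a peak in both untreated libraries, 8 in 1 and 9 in neither; of the 11 called in 2 to 5, 4 had a peak in 1 and 7 in neither. The untreated libraries had the shortest H3K4me3 lists and the highest background of the 8 H3K4me3 libraries. The part of depth and of culture condition in the lower counts was not tested, and the regions were defined on the vehicle and OA libraries.

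Histone genes outside the clusters and the known regulators of the clustered genes were examined in the same way. The replication-independent histone genes H3-3A, H3-3B, H2AZ1, H2AZ2, H2AX, H1-10, MACROH2A1, MACROH2A2 and H2AJ each had a region called in all 6 libraries. All 11 regulators were called in all 6 libraries: NPAT, CASP8AP2, SLBP, HINFP, POU2F1, E2F1, CCNE1, CDK2, LSM10, LSM11 and ZNF473. HINFP, a factor known to bind H4 promoters, had folds of 15.7, 17.6 and 17.996 in the 3 vehicle replicates and 11.5, 19.8 and 13.9 in the 3 OA replicates. NPAT had 6.34, 7.73 and 10.9, and 6.92, 7.58 and 6.46. Of the 20 called genes, 0 passed the limma test of OA against vehicle, where 0.00903% of all regions were higher, and none had an H3K27me3 peak over its start in 2 or more libraries.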

How the data were processed

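MCF-10A cells were profiled by CUT&RUN in 16 libraries. Per the labels and the study's methods, the authors called narrow peaks with MACS2 2.2.7.1 for H3K4me3 and IgG; SICER is named for H3K27me3, whose deposited lists have the MACS2 broad layout. Each deposited list gives a ratio (fold of a peak over its local background), a −log10 p and a −log10 q, per library and not scaled between libraries; listed q-values stay under 0.01 (narrow) and 0.1 (broad). The aligner, duplicate handling and use of IgG as control are not given in the sources used here. The build is hg38. Peaks outside chromosomes 1 to 22, X and Y were left out.

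Starts were those of GENCODE 44 canonical transcripts. Peaks were merged at 1 bp overlap and kept with 2 or more libraries; a region's value is its highest peak, and its length the sum of its peaks. Groups were compared with limma 3.58.1 in R 4.3.3, a fit across all regions, tested on simulated data; counts over genes have no test. Pileups were solved from fold and p under a Poisson model (SciPy 1.17.1), and 100% of the peaks tried were solved. Word uniqueness used 50-base words, shorter than the read pairs of the study. The genes, lists and motifs were chosen with earlier results of these data known. Genes named are those not called in all 6 libraries, every H1 and H4 gene, and the 3 extremes of percentile, length and OA difference; others were chosen after their values were seen. A gene of the list of replication-independent histone genes is not reported here. The labels call the replicates biological, so p-values measure the spread between 3 cultures per group. No per-peak read counts were used, so the precision of single values is unknown.

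Alternatives, given in the closing section, were a q-value of 1e-05, equal peak numbers, any start, a 1 kb window, removal of IgG regions, peaks over 50% of a region, centring, all kept regions, percentiles, H3K27me3 joined within 5 kb, a replicate block and each library left out.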

Additional observations from a re-analysis of the deposited data

How the results depend on the processing

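Across 17 alternatives for fold and 10 for length, 0 histone regions were called in every one; no histone region was left for these fits when a peak had to cover 50% of its region. The H3K27me3 counts stayed at 0 in 10 alternatives each. With peaks covering 50% of a region, 0 genes were called in all 6 libraries, 16 were without a region and 1 (H4C2) was OA-only. Leaving out 1 library gave 36 to 55 genes called in every remaining library, 10 to 25 without a region (25 without OA replicate 3) and 0 to 1 under an OA-only region, or 0 to 2 with a 1 kb window. The median percentile of histone regions, 49.2 as a mean over the 6 libraries, was 28.9 by fold and 17.0 among start-site regions alone. The median difference of log2 fold turned from 0.10 to -0.063 without centring, and that of log2 length from 0.47 to -0.0296 without vehicle replicate 3, with 0.25 to 0.78 when another library was left out and 0.31 with library medians removed. The 6 regions named for their differences kept their sign, though not their size, in all 56 alternatives that held them, with a lowest limma adjusted p of 0.156. They were picked as the extremes of the main fit and the alternatives reuse the same libraries, so a kept sign is no support for the differences. The 1 kb window with a library left out, the percentile with a library left out and the base 250 bp past the start were chosen after seeing the data.

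Vehicle and OA share replicate numbers. Same-numbered H3K4me3 libraries had correlations of their deviations over regions of -0.0451, 0.193 and -0.287. Differently numbered ones had -0.355 to 0.249. These values cannot show whether same-numbered cultures were handled together, and the main fit did not pair them. With a replicate block 0 histone regions were called in fold and 0 in length. A gene without a peak in 1 library is not among those called in all 6, and the part of depth in such missing calls was not tested.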

Other observations

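Of the 14 H4 genes, 3 held CCAAT in the 150 bases upstream of the start: H4C6, H4C9 and H4C13. All 3 were among the 4 H4 genes without a region over the start, although H4C13 lay 55 bp from one. The fourth, H4C7, held TATAAA and no CCAAT. The pattern was seen after the values were known and has no test. The upstream bases of H4C13 are shown for comparison with those of the other H4 genes.
H4C13, chr6:27873535-27873684, minus strand: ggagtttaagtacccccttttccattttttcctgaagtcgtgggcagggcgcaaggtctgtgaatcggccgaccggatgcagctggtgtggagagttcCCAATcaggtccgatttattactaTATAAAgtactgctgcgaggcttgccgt

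In the duplicated cluster on chromosome 1 the copies had similar values. H4C14 had H3K4me3 folds of 5.80, 6.24 and 6.68 in the 3 vehicle replicates and 6.18, 9.31 and 7.56 in the 3 OA replicates, and H4C15 had 5.21, 6.09 and 8.29, and 5.08, 7.12 and 7.97. H3C15 was called in all 6 libraries and H3C14 in 5, without vehicle replicate 3. With no unique 50-base word near these starts, the values of the copies cannot be told apart.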
